A study of Homo sapiens with 8 samples.

Results

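The genes described here encode 9 regulators of plasminogen activation and blood coagulation: PLAU, PLAT, PLAUR, SERPINE2, F3, TFPI, TFPI2, THBD and F2R. They were chosen by name, with their values in this comparison known, from the 54174 symbols of the table, and all 9 had a value in every library. The libraries came from 143B, an established human osteosarcoma cell line. Cells were transiently transfected for 48 h with a vector plasmid (control, 4 libraries) or with the NELL1KO plasmid (NELL1 knockout, 4 libraries). Both groups therefore carry a transfected plasmid. The labels name no selection step, no clone and no guide. The 4 libraries of a group are called biological replicates, with no word on how they were separated. NELL1 encodes a secreted matrix protein, and by its title the series is about the matrisome, the genes of the extracellular matrix and its regulators.

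Plasminogen is a circulating zymogen that urokinase and tissue-type plasminogen activator cut into plasmin, a protease that dissolves fibrin and degrades matrix proteins. Urokinase acts at the cell surface when it is bound to its receptor, and serpins, a family of protease inhibitors, block the activators. Coagulation starts when tissue factor on a cell binds factor VII. Kunitz-type inhibitors stop that complex, and the thrombin that forms later is sensed by protease-activated receptors or captured by thrombomodulin, which turns it towards activation of protein C. Tumour cells often express several of these proteins, and the urokinase system has been studied in osteosarcoma invasion.

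Values are on the deposited log2 scale, where 1 unit is a doubling; the unit before the logarithm is not given, so levels of different genes are not compared. Each library held values for 14911 to 15171 genes. NELL1 was between -6.97 and -4.53 in the controls and between -6.96 and -4.82 in the 3 knockout libraries with a value, and was blank in knockout library 3, so its transcript did not check the labels. The knockout libraries formed close pairs. The SD over 9016 tested genes of the difference between libraries was 0.12 and 0.13 within knockout libraries 1-2 and 3-4, 0.46 to 0.50 between those pairs, and 0.36 to 0.45 between a knockout and a control library. Differences within replicates 1-2 and within replicates 3-4, sets that the labels do not explain, are therefore given beside those over all libraries for the 9 genes and for the called genes of the wider list. Of 10 osteosarcoma and mesenchymal markers, 9 had a value in some library and 3 were tested. VIM and S100A6 were at 10.19 or above in every library and fell by 0.43 and 0.47 log2 units in the knockouts (limma adjusted p = 0.0425 and 0.00501). The summed linear level of the markers was 4210 to 4590 in the controls and 3010 to 3450 in the knockouts. VIM and S100A6 made up almost all of it, so it repeats their falls and says little of the other markers. COL1A1 was between -0.33 and 0.65 in the controls, -1.45 and -0.87 in knockout libraries 1-2 and 0.80 and 0.90 in 3-4. ALPL overlapped between the groups. SPP1, the other tested marker, did not pass (difference 0.45, limma adjusted p = 0.477), RUNX2 was between 0.05 and 0.43, and SP7, an osteoblast transcription factor, was blank throughout. Fewer expressing cells and less RNA per cell cannot be told apart in such libraries.

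Upstream sequence is shown for 4 of the 9 genes because of the short motifs found there. RefSeq start sites were matched for 6 genes (8 windows of 250 bases before the start). The letters TGANTCA, the core recognised by AP-1 factors, were searched on both strands. CCAAT, GC box, TATA box, E-box and NF-kappaB motifs were searched as well. The AP-1 core occurred in 3 of the 8 windows, those of F3, PLAUR and TFPI2, against 6.6% of 35116 windows of the same length. The GC box occurred in 5 of the 8, against 42.6% of all windows. The TATA box, E-box and NF-kappaB motifs each occurred in 1, against 6.3% to 10.7%. AP-1 and CCAAT were picked for display from this search, so their shares are a description. Capitals mark the AP-1 core in the first 3 sequences. In the SERPINE2 window they mark CCAAT on either strand, which was present 7 times there. CCAAT occurred at least once in 2 of the 8 windows and in 32.0% of all windows. The printed SERPINE2 sequence repeats much of the stretch around these matches with few changes, so the 7 are not separate occurrences. All sequences run 5′ to 3′ on the minus strand of GRCh38.p14, and the F3 and SERPINE2 stretches contain no annotated exon. A match describes letters in a window and is no evidence of binding.
F3, chr1:94541801-94542009: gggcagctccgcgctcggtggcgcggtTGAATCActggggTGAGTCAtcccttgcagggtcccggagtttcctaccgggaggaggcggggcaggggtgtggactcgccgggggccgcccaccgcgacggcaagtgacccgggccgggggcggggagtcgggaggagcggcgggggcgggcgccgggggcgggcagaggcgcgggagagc
PLAUR, chr19:43670337-43670366: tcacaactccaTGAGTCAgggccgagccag
TFPI2, chr7:93890822-93890851: gtccccgtgcaTGAATCAgccacccctcag
SERPINE2, chr2:224031479-224031728: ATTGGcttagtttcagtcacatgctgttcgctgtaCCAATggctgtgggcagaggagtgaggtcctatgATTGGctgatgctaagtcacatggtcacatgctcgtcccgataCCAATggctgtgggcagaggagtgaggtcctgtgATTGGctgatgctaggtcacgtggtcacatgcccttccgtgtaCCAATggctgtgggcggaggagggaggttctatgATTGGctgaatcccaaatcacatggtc
The F3 cores lie 223 to 217 and 210 to 204 bases before the start, that of PLAUR 186 to 180 and that of TFPI2 87 to 81. The SERPINE2 window belongs to the downstream one of 2 listed start sites of this gene, and the values do not say which start was used.

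The 9 genes did not move as a block. PLAUR, SERPINE2 and TFPI were lower in all 4 knockout libraries than in any control, PLAU, PLAT and TFPI2 overlapped between the groups, and THBD, F2R and F3 differed from their controls in opposite directions in the 2 knockout pairs. Groups did not overlap for 3 of the 9, all lower, against 22.9% of all tested genes. In the limma fit, 2 of the 9 had an adjusted p-value under 0.05 (PLAUR and SERPINE2, both lower), against 13.1% of all tested genes. Because these genes were chosen with this contrast in view, those counts are a description. The same holds for every call of these 9 genes in the other fits given below. The median difference over the 9 was -0.20, and 0.01 over all tested genes.

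**Figure D1:**
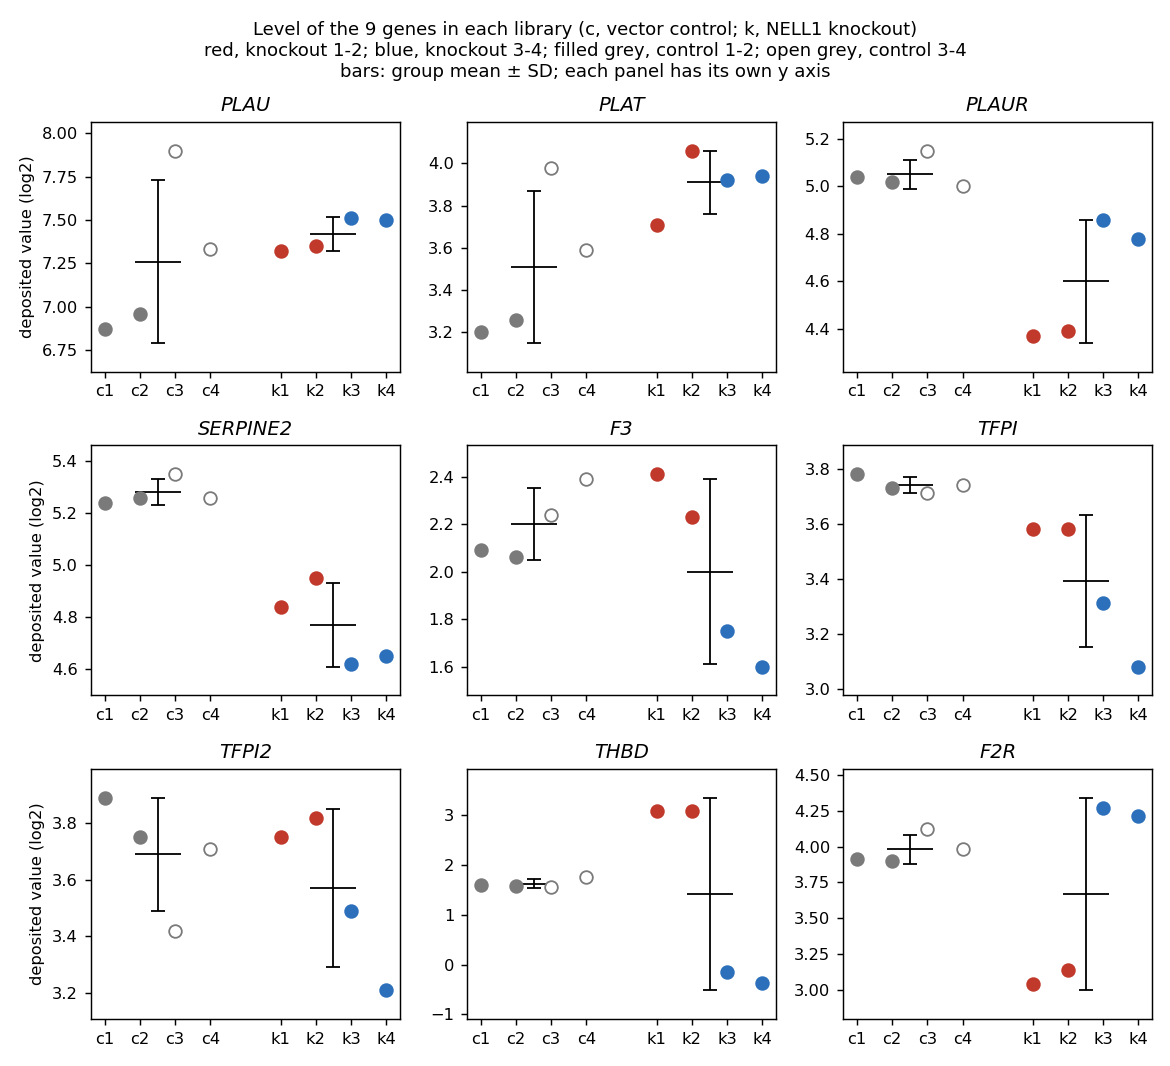
Deposited log2 value of each of the 9 genes (y axis, scaled per panel) in control libraries 1 to 4 and knockout libraries 1 to 4 (x axis), with group means and SD as bars. SERPINE2, PLAUR and TFPI show every knockout point below every control point, and THBD shows 2 knockout points above and 2 below a tight control group.

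The activators come first. PLAU encodes urokinase and lies on chromosome 10 (73908832 to 73917494, GRCh38.p14). Control libraries 1 to 4 had log2 values of 6.87, 6.96, 7.90 and 7.33, and knockout libraries 1 to 4 had 7.32, 7.35, 7.51 and 7.50. The controls spanned 1.03 units, a 2.05-fold range, and enclosed all knockout libraries, which spanned only 0.19. The means were 7.26 ± 0.47 and 7.42 ± 0.10 (SD, n = 4 each), a difference of 0.16 ± 0.21 (limma SE). The difference was 0.42 within replicates 1-2 and -0.11 within replicates 3-4.

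PLAT, on chromosome 8 (42174718 to 42207565), encodes tissue-type plasminogen activator. Its values were 3.20, 3.26, 3.98 and 3.59 in the controls and 3.71, 4.06, 3.92 and 3.94 in the knockouts. Control library 3, which was also the highest of all libraries for PLAU, lay among the knockout libraries, and the other 3 controls lay below every knockout library. The difference was 0.40 ± 0.17 (limma SE), or 1.32-fold higher in the knockouts. It was 0.65 within replicates 1-2 and 0.15 within replicates 3-4, and 0.56 without control library 3, a fit in which PLAT passed the threshold.

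PLAUR, on chromosome 19 (43646095 to 43670169), encodes the urokinase receptor, which is held in the membrane by a lipid anchor. It stood at 5.04, 5.02, 5.15 and 5.00 in the controls and at 4.37, 4.39, 4.86 and 4.78 in the knockouts. The controls were tight, with a span of 0.15, and all knockout libraries were below them, libraries 1 and 2 the most. The means were 5.05 ± 0.06 and 4.60 ± 0.26 (SD, n = 4 each), and the difference of -0.45 ± 0.12 (limma SE) corresponds to a level 1.37-fold lower. It was -0.65 within replicates 1-2 and -0.25 within replicates 3-4. PLAUR was no longer called without control library 1, 2, 3 or 4, without knockout library 1 or 2, in replicates 3-4 alone, with no filter on low values, or with the knockout pairs averaged; its difference ranged from -0.54 to -0.38 over the fits that left out 1 library.

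SERPINE2, on chromosome 2 (223975045 to 224039286), encodes protease nexin, a serpin that inhibits thrombin, urokinase and tissue-type plasminogen activator at cell surfaces. Its values were 5.24, 5.26, 5.35 and 5.26 in the controls and 4.84, 4.95, 4.62 and 4.65 in the knockouts. Every knockout library lay below every control, and here libraries 3 and 4 were the lower pair. The means were 5.28 ± 0.05 and 4.77 ± 0.16 (SD, n = 4 each), a difference of -0.51 ± 0.09 (limma SE), 1.43-fold lower. It was -0.36 within replicates 1-2 and -0.67 within replicates 3-4. SERPINE2 was called whichever library was left out, but not with the knockout pairs averaged. The differences of PLAUR and SERPINE2 are about as large as those of the mesenchymal markers VIM and S100A6 (-0.43 and -0.47), whose part in these results was not tested.

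The transcript ratio of an activator to its inhibitor within a library does not depend on gene length when it is compared between libraries. The log2 ratio of PLAT to SERPINE2 was between -2.05 and -1.37 in the controls, highest in control library 3, and -1.14, -0.88, -0.70 and -0.71 in the knockouts. All knockout libraries were above all controls, and the mean ratio was 1.88-fold higher. This follows from the values of the 2 genes given above, so it is no separate result. No other ratio examined was without overlap. The differences were alike in the sets, 1.01 within replicates 1-2 and 0.81 within replicates 3-4. The ratio of PLAU to SERPINE2 was also higher in the knockouts, by 0.67 log2 units, but it overlapped because control library 3 stood at 2.55. The ratio of PLAU to its receptor gene PLAUR differed by 1.08 within replicates 1-2 and by 0.14 within replicates 3-4.

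F3, on chromosome 1 (94529173 to 94541759), encodes tissue factor, the membrane protein that starts coagulation. It was 2.09, 2.06, 2.24 and 2.39 in the controls and 2.41, 2.23, 1.75 and 1.60 in the knockouts. Knockout library 1 was just above the control range, library 2 inside it, and libraries 3 and 4 below all controls. The mean difference of -0.20 ± 0.18 (limma SE) averages a difference of 0.24 within replicates 1-2 and one of -0.64 within replicates 3-4.

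TFPI and TFPI2 encode Kunitz-type inhibitors, the first of the tissue factor complex and the second of plasmin and other proteases. TFPI, on chromosome 2 (187464230 to 187554435), was 3.78, 3.73, 3.71 and 3.74 in the controls and 3.58, 3.58, 3.31 and 3.08 in the knockouts. Its controls had the smallest span of the 9 genes, 0.07, and every knockout library was lower. The difference was -0.35 ± 0.11 (limma SE), with -0.18 within replicates 1-2 and -0.53 within replicates 3-4, and TFPI did not pass the threshold over all 8 libraries, but did with a term for replicates 1-2 against 3-4. TFPI2, on chromosome 7 (93885396 to 93890753), was 3.89, 3.75, 3.42 and 3.71 in the controls and 3.75, 3.82, 3.49 and 3.21 in the knockouts. These overlapped, with a difference of -0.12 ± 0.15 (limma SE), which was -0.04 within replicates 1-2 and -0.21 within replicates 3-4. The log2 ratio of F3 to TFPI overlapped between groups, with means of -1.54 ± 0.16 and -1.39 ± 0.17 (SD, n = 4 each). In replicates 3-4 both genes were lower in the knockouts. The log2 ratio of F3 to TFPI2 also overlapped, with a difference of -0.08 (0.28 within replicates 1-2 and -0.43 within replicates 3-4).

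THBD, on chromosome 20 (23045633 to 23049672), encodes thrombomodulin, the thrombin receptor best known from the endothelium. It had the widest spread of the 9. The controls were 1.60, 1.57, 1.56 and 1.75, the first knockout pair stood at 3.09 and 3.08, and the second (libraries 3 and 4) at -0.14 and -0.36. The first pair was 2.83-fold above its controls and the second pair 3.75-fold below its own, so the pairs differed from each other 10.1-fold. The mean difference over all libraries, -0.20 ± 0.80 (limma SE), describes neither pair. Leaving out 1 library moved it from -0.76 to 0.39, which includes a change of sign.

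F2R, on chromosome 5 (76716126 to 76735770), encodes the main protease-activated receptor for thrombin and was split the other way. It was 3.91, 3.90, 4.12 and 3.98 in the controls, 3.04 and 3.14 in knockout libraries 1 and 2, and 4.27 and 4.21 in knockout libraries 3 and 4. The first knockout pair was 1.76-fold below its controls and the second 1.14-fold above its own. The knockout libraries with more THBD transcript were thus those with less F2R transcript. Over all libraries the difference was -0.31 ± 0.29 (limma SE).

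**Figure D2:**
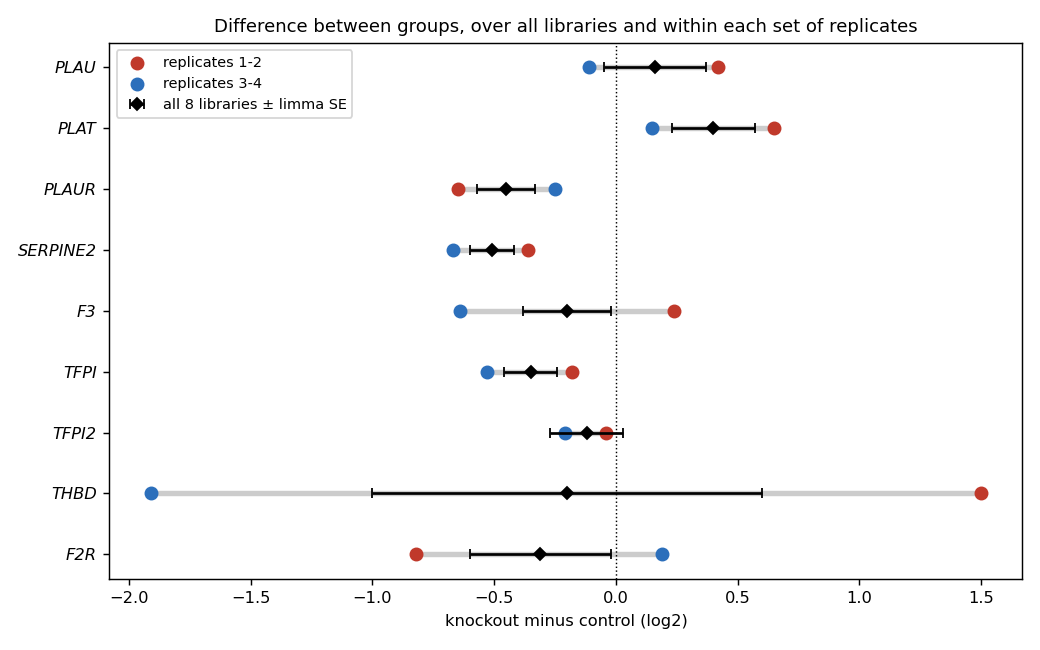
Knockout minus control in log2 units (x axis) for each of the 9 genes (y axis) over all 8 libraries with the limma standard error (black), within replicates 1-2 (red) and within replicates 3-4 (blue). The red and blue points of THBD lie at 1.50 and -1.91, on either side of 0, and those of SERPINE2 at -0.36 and -0.67.

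The difference had opposite signs in the 2 sets for 4 of the 9 genes (PLAU, F3, THBD and F2R), against 43.0% of all tested genes. Knockout and control libraries did not overlap for 8 of 9 genes within replicates 1-2 (background 81.5%) and for 6 of 9 within replicates 3-4 (background 68.9%), so these shares are near those of the whole table. Whether the sets differ was not tested, since they were recognised from the data. Of the markers of other cells, 7 of 8 endothelial genes had a value somewhere and none reached the minimum mean of 1. Their summed linear level was 0.776 to 1.30 in the controls, 1.37 and 1.48 in knockout libraries 1-2 and 1.27 and 1.45 in knockout libraries 3-4. EMCN was blank throughout and CLDN5 in all libraries but 1. One endothelial gene followed the order of THBD: KDR was between -4.73 and -2.49 in the controls, -0.82 and -1.16 in knockout libraries 1-2 and -4.84 and -4.65 in knockout libraries 3-4. ERG went the other way, at -0.30 and -0.31 in knockout libraries 1-2 and 0.33 and 0.08 in knockout libraries 3-4. TEK and PECAM1 were also lower in knockout libraries 1-2 than in 3-4, and VWF and CDH5 overlapped between these pairs. The part of these markers in the result was not tested. Of the leukocyte, platelet and hepatocyte markers, PTPRC, CD3E, PF4, PPBP and TTR were blank throughout. The leukocyte marker CD68, a lysosomal protein, was the only one of them tested, at 5.72 to 5.90 in the controls, 5.77 and 5.88 in knockout libraries 1-2 and 5.54 in both others, and did not pass (limma adjusted p = 0.305). The highest value of any other marker of these 3 cell types was -1.78, that of ITGA2B in control library 4. The summed level of the leukocyte markers was 52.9 to 59.9 in the controls, 54.8 and 58.9 in knockout libraries 1-2 and 46.7 and 46.8 in knockout libraries 3-4. All 5 epithelial markers had a value somewhere, and only EPCAM was tested. It was between 2.38 and 2.75 in the controls, 2.55 and 2.76 in knockout libraries 1-2 and 1.83 and 1.94 in knockout libraries 3-4. EPCAM did not pass (limma adjusted p = 0.345). CLDN4 was also lower in knockout libraries 3-4 (-4.47 and -4.05) than in 1-2 (-2.61 and -2.44). KRT19 went the other way, at -2.90 and -2.85 in knockout libraries 3-4 and -5.56 and -5.60 in 1-2. CDH1 and KRT5 were blank in most libraries.

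The other genes of these pathways were followed in a list of 82 written from general knowledge and grouped by role, none of them among the 9. Earlier results of these data were known when the list was written, so its calls and shares are a description. Of these, 34 were tested, 18 had a mean below 1, 21 were blank in some libraries and 9 in all. PLG, the plasminogen gene, had a value in only 3 libraries, the highest -7.26, and F7, F9, F10 and FGA, factors made mainly by the liver, were blank in all. In the limma fit 6 of the 34 passed the threshold, 1 higher and 5 lower in the knockouts, or 17.6% against the 13.1% of all tested genes. The median difference of the 34 was -0.11.

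Of 7 tested docking proteins, which hold plasminogen or the urokinase receptor at the surface, 3 fell, 1 rose and 3 did not pass. The share called over all tested genes was 13.1%. The group was set by the list, so this count is a description. None of these calls remained with the knockout pairs averaged. S100A10, the annexin partner that binds plasminogen, was 7.93, 7.94, 7.48 and 7.97 in the controls and 6.78, 6.94, 6.99 and 7.25 in the knockouts. It fell by 0.84 ± 0.14 on the log2 scale (limma SE, adjusted p = 0.00822), and all knockout libraries lay below all controls. The difference was -1.08 within replicates 1-2 and -0.61 within replicates 3-4. Its partner ANXA2 was 8.37 to 8.48 in the controls and 8.29, 8.36, 8.81 and 8.79 in the knockouts, and did not pass (limma adjusted p = 0.535). The integrin chains ITGAV and ITGA3, which associate with vitronectin or the urokinase receptor, fell by 0.65 and 0.43 log2 units (limma adjusted p = 0.0113 and 0.0316). Within replicates 1-2 and 3-4 the difference was -0.89 and -0.41 for ITGAV and -0.62 and -0.24 for ITGA3, which was not called in replicates 3-4 alone (limma adjusted p = 0.0566). PLGRKT, a transmembrane plasminogen receptor, rose by 0.37 (limma adjusted p = 0.0340), from 3.19 ± 0.17 to 3.56 ± 0.07 (SD, n = 4 each). Its difference was 0.35 within replicates 1-2 and 0.38 within replicates 3-4, where it was not called (limma adjusted p = 0.0531). Of the fits that left out 1 library, only that without control library 3 called PLGRKT (limma adjusted p = 0.0360).

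SERPINB8, an intracellular serpin, was 1 of 2 tested genes listed with the inhibitors of plasminogen activation and plasmin. It fell by 0.64 ± 0.10 (limma SE, adjusted p = 0.00696), and the other gene did not pass. The list placed SERPINB8 there, and its action on these proteases was not tested. The SERPINB8 difference was -0.46 within replicates 1-2 and -0.81 within replicates 3-4. In the protein C and antithrombin systems, SERPIND1, heparin cofactor II, which inhibits thrombin, had the largest difference of the 34 tested. It was 4.01, 3.92, 3.69 and 3.87 in the controls and 2.12, 2.30, 3.09 and 3.29 in the knockouts, a fall by 1.17 ± 0.25 on the log2 scale (limma SE, adjusted p = 0.0205), with -1.76 within replicates 1-2 and -0.59 within replicates 3-4. PROCR, the endothelial protein C receptor, lay between 5.51 and 5.73 in all libraries and did not pass (difference 0.10, limma adjusted p = 0.281).

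Of 6 tested clearance receptors none passed in the limma fit, and 4 had an unadjusted p under 0.05. The share of all tested genes at that level is not given, here or below, so such counts are a description only. LRP1, the endocytic receptor that removes activator and inhibitor complexes, was below the minimum mean, with a control mean of 0.99 ± 0.27 and a knockout mean of 0.10 ± 0.29 (SD, n = 4 each). F2RL1, the trypsin-type protease-activated receptor, was 5.40 to 6.02 in the controls, 4.04 and 4.31 in knockout libraries 1 and 2, and 5.61 and 5.55 in knockout libraries 3 and 4 (difference -0.75, limma adjusted p = 0.212). With a term for replicates 1-2 against 3-4 it passed (limma adjusted p = 0.0281). The low pair is the same as for F2R. None of the 6 tested genes of phospholipid exposure, of the 5 genes of the vitamin K cycle or of the 3 secretion genes passed in the limma fit, with 1, 1 and 0 of them at an unadjusted p under 0.05.

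**Figure D3:**
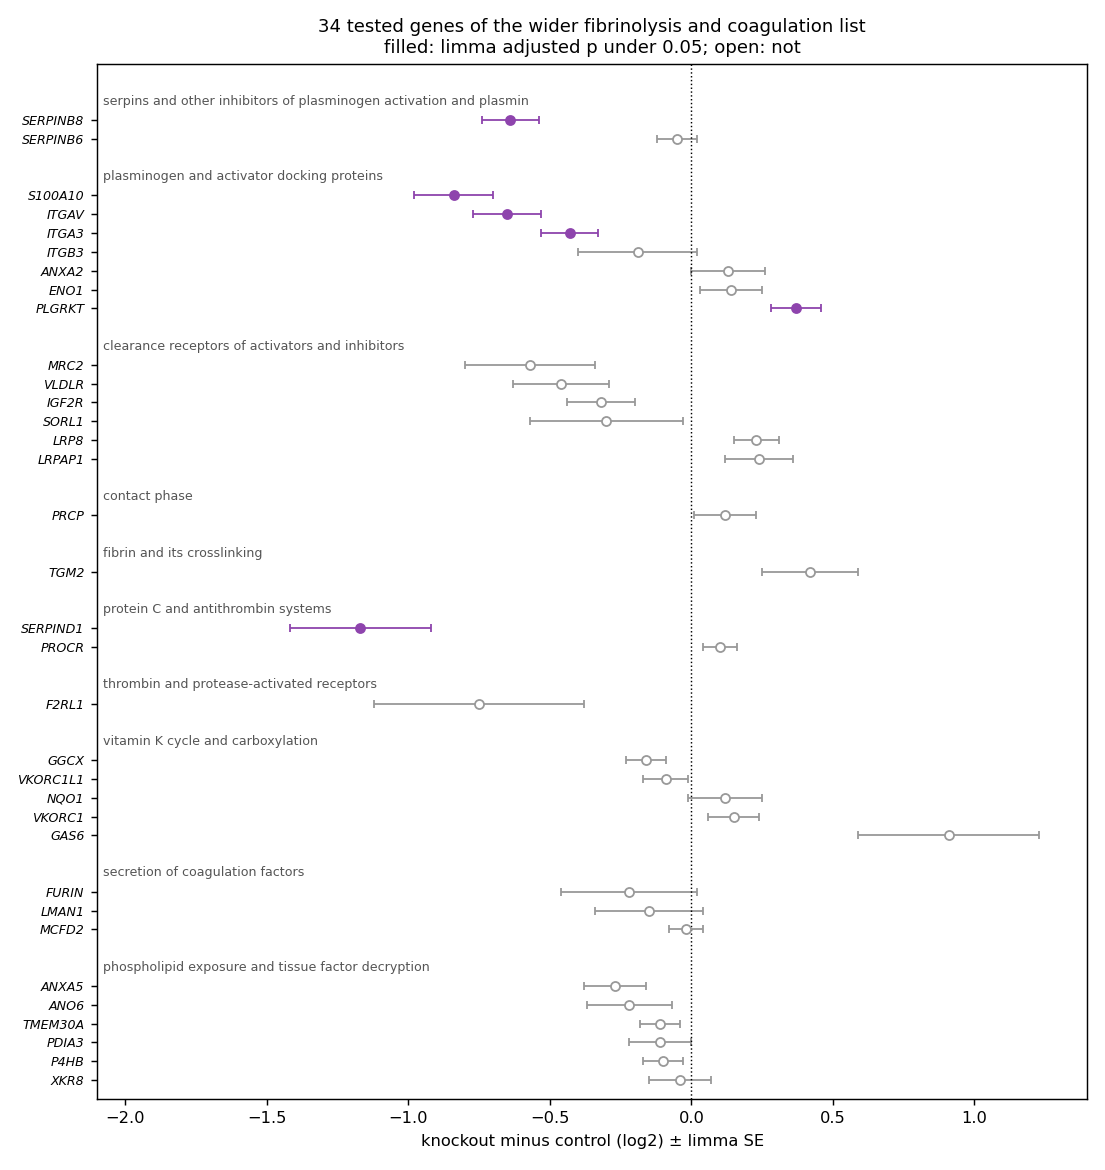
Knockout minus control in log2 units with the limma standard error (x axis) for the 34 tested genes of the wider list, grouped by role (y axis), with genes past the threshold filled. SERPIND1 lies farthest to the left at -1.17, and PLGRKT is the filled point to the right of 0, at 0.37.

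With the replicate number as a block, PLGRKT and ITGA3 did not pass (limma adjusted p = 0.0706 and 0.0584), and GAS6, which was higher by 0.91, did (adjusted p = 0.00968 against 0.0983 without the block). With a term for replicates 1-2 against 3-4 in its place, F2RL1 and GAS6 passed beside the 6. SERPINB8, S100A10 and ITGAV passed whichever library was left out; without control library 1, 2 or 4 those 3 were the only ones that passed. With the knockout pairs averaged none of the 6 passed in limma (adjusted p from 0.0514 for SERPINB8 to 0.165 for PLGRKT), and 11 of 34 had an unadjusted p under 0.05.

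The genes with the nearest pattern over the 8 libraries were taken for SERPINE2, PLAUR and PLAT. Likeness was the root mean square difference between the deviations of 2 genes from their own means, over 8 libraries that include the close pairs. For SERPINE2, which itself deviated by 0.28, the nearest were RHOB (0.04), FHL2 (0.05) and PPP1R35 (0.05). For PLAUR, also at 0.28, they were VIM (0.04), ITM2C (0.04) and GJA3 (0.05). PLAT, at 0.31, was matched less closely, by ITPRIPL1, UCKL1 and DDIAS at 0.10 each. For THBD, added after its values were seen, CLGN, GEM and SESN2 were nearest at 0.52, 0.53 and 0.56, against its own deviation of 1.19.

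**Figure D4:**
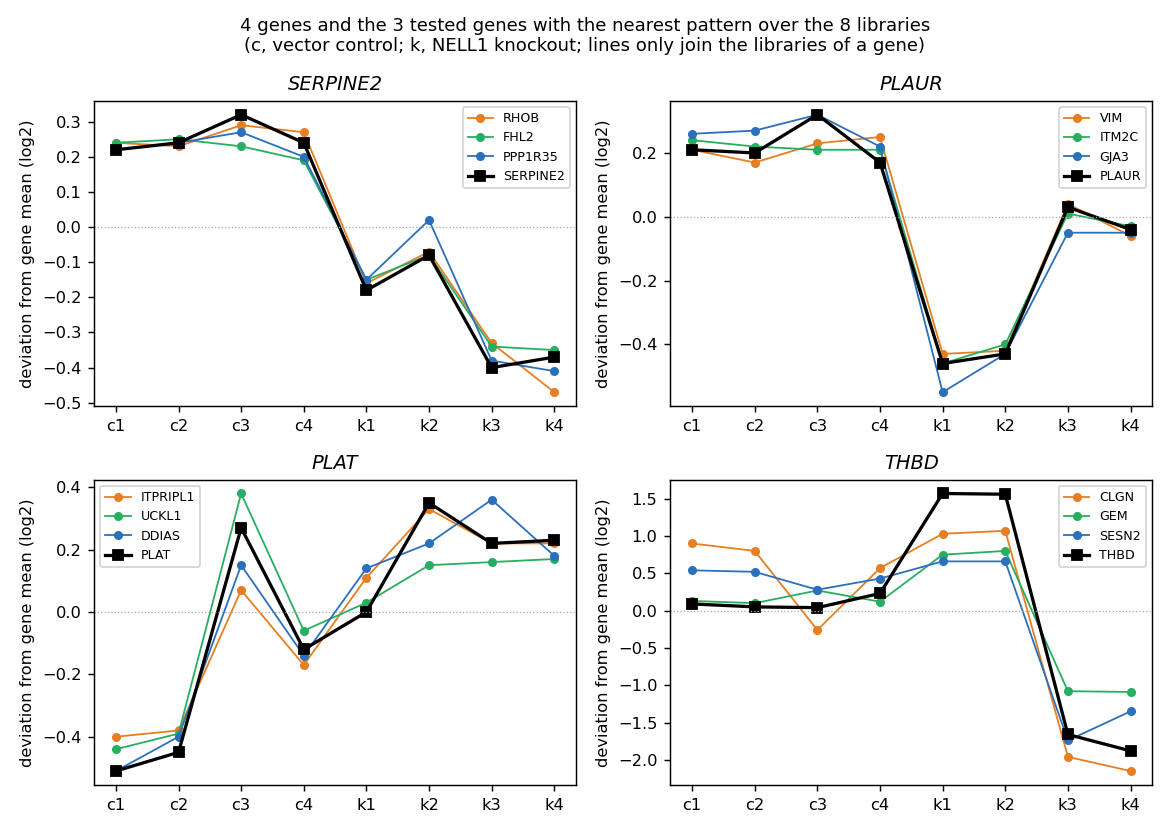
Deviation from the gene's own mean in log2 units (y axis) in the 8 libraries (x axis) for SERPINE2, PLAUR, PLAT and THBD (black squares) and the 3 tested genes nearest to each (coloured points). The coloured lines stay close to SERPINE2 and PLAUR, and fall short of THBD in knockout libraries 1 and 2, where THBD deviates by 1.57 and 1.56.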

How the data were processed

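RNA from transfected cells of 1 cell line was measured in 8 libraries, 4 a group. The deposited table gives 1 log2 value per gene symbol and library. Per the labels, libraries were stranded and made from total RNA; per the submitters' processing notes, bcl2fastq, Partek 7.0 and the build GRCh38 were used, in roles not given there. The aligner, counting program and unit before the logarithm are not given in the sources used here, and base 2 was inferred from the range. All libraries had the same mean (1.07), median (1.77), lowest (-10.5) and highest value (12.1), so the deposited log2 values were quantile normalized: a change in total RNA output cannot be seen in them. Depth is unknown and no counting error can be given. Blank cells were treated as missing.

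Groups came from sample titles and columns from description labels. limma 3.58.1 in R 4.3.3 (lmFit, eBayes without trend) was fitted to 9016 genes, those without a blank cell whose mean over the libraries was 1 or more, with Benjamini-Hochberg adjusted p-values under 0.05 called. The fit was tested on simulated data in which the libraries of a group were drawn independently. That simulation held no close knockout pairs, so it does not cover this feature of the data. The 9 genes and the lists were chosen with earlier results of these data known (3 genes of the wider list are not reported here), so no p-value is given for the 9 genes. Named from the wider list were every called gene and ANXA2, S100A10, LRP1, PROCR, F2RL1 and PLG. Nearest patterns were taken for the 3 of the 9 genes with the largest difference between groups, from the root mean square difference between deviations from each gene's mean. Promoter sequences and gene positions came from RefSeq (GRCh38.p14), exons from GENCODE 29.

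Same-numbered control and knockout libraries deviated together from their group means (correlation across genes of 0.20 to 0.29 in the 4 pairs). Pairs of other number within replicates 1-2 or 3-4 gave 0.11 to 0.31, and pairs across these sets -0.30 to -0.15. The correlation followed the sets and does not show that the numbers pair the libraries. A fit blocked on the replicate number (replicate block) was an alternative. The other alternatives were the filter on low values, median centring, a pseudocount of 1, averaged knockout pairs, a term for replicates 1-2 against 3-4, each of these sets alone and each library left out.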

Additional observations from a re-analysis of the deposited data

Results flagged for a closer look

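A split between the sets was looked for in 18 genes. In 4 of them both knockout libraries of 1 set lay above their controls and both of the other set below theirs. ENO1, ITGB3, SORL1, FURIN and ANO6, tested genes of the wider list outside the 18, split in the same way. Opposite signs in the sets, a looser measure, were found for 43.0% of all tested genes. The difference within replicates 1-2 minus that within replicates 3-4 was 3.41 for THBD, -1.01 for F2R, 0.88 for F3 and -0.41 for ANXA2, in log2 units. None of these gaps was tested. S100A10 in control library 3 (7.48) lay far below the other controls (7.93 to 7.97), with a gap of 0.925 of the range; 36 groups of 4 libraries were examined in this way, and chance flags about 1 in 20.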

How the results depend on the processing

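Unit before the logarithm and depth are unknown, whether the libraries of a knockout pair came from separate cultures was not tested, and 4 against 4 leaves small differences undetected. The main limma fit called 2 of the 9 genes, 6 of the wider list and 1183 of all genes. No filter on low values gave 1 of the 9, which is SERPINE2. That fit brought LRP1 (limma adjusted p = 0.0291), F12 (0.0249) and PROS1 (0.0142) of the wider list past the threshold. PLGRKT (limma adjusted p = 0.0561) and ITGA3 (0.0528) lost their calls in it. A mean of at least 3 gave 729 of all genes and left THBD and F3 untested. Averaged knockout pairs gave 0 of the 9, 0 of the list and 108 of all genes. A term for replicates 1-2 against 3-4 gave 3, 8 and 2274, adding TFPI to the 9 genes' calls. Replicates 1-2 alone gave 8, 25 and 5380 and replicates 3-4 alone 4, 10 and 2987. Leaving out 1 library gave 1 to 2 of the 9, 3 to 6 of the list and 391 to 1353 of all genes. ANXA2 differed by -0.08 in replicates 1-2 alone, opposite in sign to all 8 libraries. The replicate block gave 2 of the 9, 5 of the list and 924 of all genes and changed no call named in the text other than those given with it. Median centring and a pseudocount of 1 changed no call of the 9 genes or the list. The cause of these changes was not tested.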
